A study of Mus musculus with 10 samples.

Results

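The expression of 10 imprinted genes that act on growth was followed in the mouse infrarenal aorta: H19, Igf2, Igf2r, Meg3, Dlk1, Peg3, Mest, Cdkn1c, Grb10 and Plagl1. They were chosen by name, as every spot of the array that is not a control and whose gene name equals one of these 10. This gave 10 of the 35527 gene names on the array and 25 of its 55681 probes, on 43 spots. The samples were infrarenal aortas of male C57BL/6J mice aged 10 weeks, taken 7 days after surgery. In 5 mice the segment had been filled with saline for 5 min at 100 mmHg (sham), and in 5 mice with saline that held 1.5 U per mL of porcine pancreatic elastase (PPE), an infusion used to model abdominal aortic aneurysm. Each array held the RNA of 1 aorta (500 ng, Cy5, red) beside a universal mouse reference RNA (Cy3, green), so each value below is a log2 ratio of aorta over reference. Each change is the PPE mean minus the sham mean of that ratio.

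Genomic imprinting silences a gene on the chromosome inherited from one parent, so that the copy from the other parent supplies most of the RNA. Many imprinted genes set the growth of the fetus and placenta, and several of them are switched down in most tissues after birth. H19 is a long non-coding RNA that also serves as the precursor of miR-675 and shares enhancers and a control region with its neighbour Igf2. Meg3, the other long non-coding RNA among the members, lies beside Dlk1 in a second imprinted cluster.

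Sequences are shown for these 2 non-coding RNAs, because their probes are placed along one transcript or on differing transcript variants, so that each value below can be tied to a stretch of the RNA. The probes are given 5′ to 3′ on the strand of the RNA, as the arrays' design lists them on the mm9 build. The first 6 target H19 in order from its 3′ end, at chr7:149761492-149761551, chr7:149761693-149761752, chr7:149761756-149761815, chr7:149761957-149762016, chr7:149762113-149762172 and chr7:149762173-149762232 (minus strand). The seventh lies farther from the 3′ end, at chr7:149762417-149762476.
H19 A_55_P1961127: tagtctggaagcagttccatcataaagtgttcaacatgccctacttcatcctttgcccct
H19 A_30_P01021588: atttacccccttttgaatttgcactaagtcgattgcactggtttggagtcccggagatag
H19 A_30_P01025068: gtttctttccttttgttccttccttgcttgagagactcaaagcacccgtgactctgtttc
H19 A_30_P01028007: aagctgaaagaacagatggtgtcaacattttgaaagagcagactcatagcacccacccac
H19 A_30_P01028827: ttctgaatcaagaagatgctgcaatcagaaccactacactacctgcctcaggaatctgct
H19 A_30_P01026972: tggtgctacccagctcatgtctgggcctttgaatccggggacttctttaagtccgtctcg
H19 A_55_P1961125: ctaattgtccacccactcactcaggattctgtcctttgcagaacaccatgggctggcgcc

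Of the Meg3 probes, 2 are shown, both on the plus strand, at chr12:110799558-110799617 (variant 1 by the arrays' annotation) and chr12:110809678-110809737 (variant 3).
Meg3 A_52_P196568: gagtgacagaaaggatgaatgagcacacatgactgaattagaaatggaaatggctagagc
Meg3 A_51_P455997: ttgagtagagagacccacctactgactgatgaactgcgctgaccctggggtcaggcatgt

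The arrays differed in brightness. Between 37.6% (sham 5) and 65.8% (PPE 1) of spots were well above background in red, and no spot was saturated. The lowest correlation between 2 arrays of a group was 0.867 in sham and 0.824 in PPE, and the highest between the groups was 0.776. The labels of the scanned slides put sham 1, PPE 1 and PPE 2 on slide 1, the only slide of the second scan day, and sham 2, sham 3, PPE 3 and PPE 4 on slide 2, while sham 4, sham 5 and PPE 5 each came from a slide of their own. A probe entered the test if 5 or more of the 10 arrays gave it a red signal well above background. A call means a Benjamini-Hochberg adjusted p under 0.01 over all 30836 tested probes in limma.

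The 10 genes did not move as one group. H19, Mest, Plagl1 and Igf2r rose in PPE, none fell, and 6 did not pass the test (Igf2, Meg3, Dlk1, Peg3, Cdkn1c and Grb10). Over all gene names, each by its brightest probe, 13.7% were called higher and 9.86% lower. By probe, 12 of the 23 tested rose, 0 fell and 11 were not called, against 12.8% of all tested probes called higher and 9.15% called lower. Of these 12 probes, 6 read H19 and 3 read Mest, so they are not independent of one another. With each array centred on its median in place of the intensity-dependent loess fit, 409 of all probes were called higher and 8 lower, against 3935 and 2822, and none of the 10 genes was called by its brightest probe. The median change of the members was 0.59 over the 10 genes, each by its brightest tested probe, and 0.02 over all gene names. In 7 of them the change was above 0 and in 3 it was below 0, and under median centring the sign of Igf2 turned, for 8 above and 2 below. That centring moved the median of all probes from 0.01 to 0.34, and relative to it the members again split into 7 above and 3 below. The ranges of the groups did not overlap for 4 genes and 12 probes, as for 23.9% of all tested probes.

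**Figure D1:**
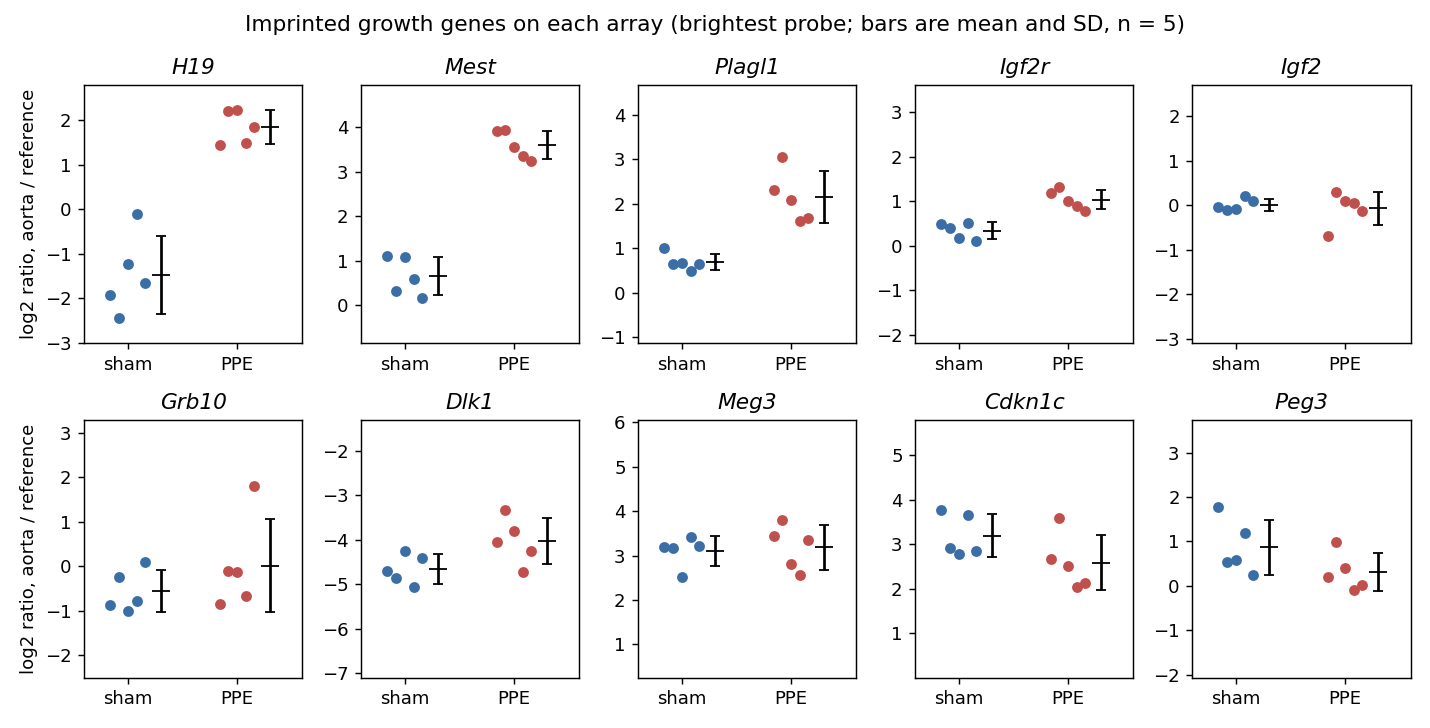
Log2 ratio of aorta over reference on every array for the brightest tested probe of each of the 10 genes, with 5 sham (blue) and 5 PPE (red) arrays as points and the mean with its SD as a black bar. Each panel has its own axis of equal length. H19, Mest, Plagl1 and Igf2r have separate groups, and the groups of the other 6 overlap.

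By brightest probe H19 had the largest change among the members. Its lead over Mest, 0.38, was within the spread between arrays (exact permutation p = 0.452). On the brightest H19 probe, A_55_P1961127, the sham arrays 1 to 5 read -1.93, -2.45, -1.24, -0.10 and -1.66, and the PPE arrays 1 to 5 read 1.45, 2.22, 2.25, 1.49 and 1.85. Every PPE array lay above the reference and every sham array below it, with sham 4 the nearest to the PPE arrays. The mean went from -1.47 ± 0.89 to 1.85 ± 0.38 (SD, n = 5 each), a rise of 3.33 (SE 0.37, 95% interval 2.51 to 4.14), or 10.0-fold. The adjusted p in limma was 4.28e-05, and the exact two-sided permutation test gave p = 0.00794, the smallest that relabelling 10 arrays allows. Within slide 1 the difference was 3.77 and within slide 2 it was 3.71, and with slide as a block in the fit the rise was 3.73. That fit rests on slides 1 and 2 only, since sham 4, sham 5 and PPE 5 each had a slide of their own.

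All 6 tested H19 probes rose, by 2.40 to 3.35, and they share 1 RNA. Distances are in genomic bases from the 3′ end of the region that the arrays' design gives for H19, chr7:149761435-149764019. The 2 probes nearest the 3′ end, 57 and 258 bases from it, rose by 3.33 and 3.35. The next 3, 321, 522 and 678 bases from the end, rose by 2.80, 2.66 and 2.77, and the probe 738 bases away rose by 2.40 (SE 0.23). The probes 522, 678 and 738 bases away were above background on 3, 4 and 4 of the sham arrays. The intervals of these 6 overlap one another, and their order was not stable: with the authors' processed ratios the largest rises were those at 522 and 678 bases, 3.89 and 3.73, against 3.40 at 57 bases. The seventh probe, 982 bases from the end, was above background on 0 sham and 2 PPE arrays and was not tested. Its 2 group means, -0.06 and 0.14, stand for a signal that was mostly not well above background. Sham 4 was the highest sham array on each of the 6 tested probes. Without sham 4, or without any other single array, all 6 kept their call.

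**Figure D2:**
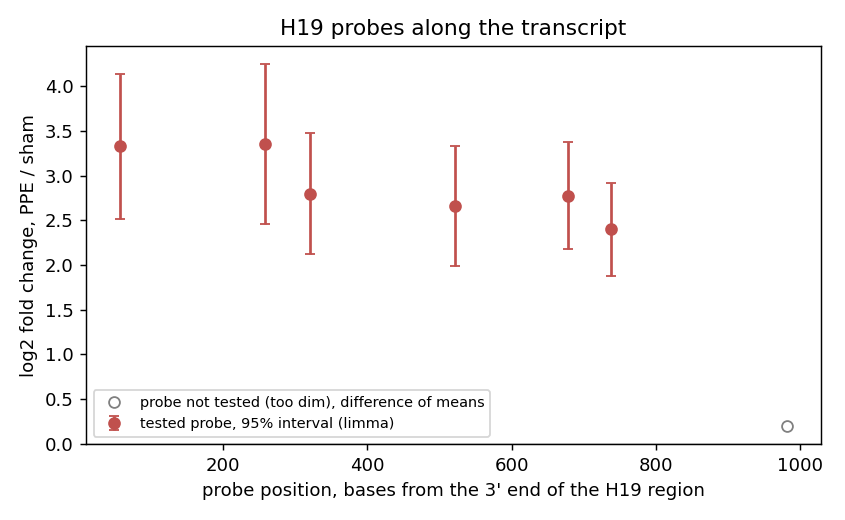
Change of each H19 probe (PPE minus sham, log2) against its distance in genomic bases from the 3′ end of H19, with 95% intervals for the 6 tested probes. The 6 lie between 2.40 and 3.35, and the probe 982 bases away, which was mostly not above background, lies near 0.

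No rise like that of H19 was seen on the 1 probe of Igf2, the growth factor encoded beside H19. This probe, A_55_P2118173 at chr7:149839661-149839720, is assigned to variant 1 by the arrays' annotation. It read -0.05, -0.12, -0.08, 0.21 and 0.08 on sham arrays 1 to 5 and -0.70, 0.30, 0.09, 0.06 and -0.13 on PPE arrays 1 to 5. The sham values fell inside the range of the PPE values, which ran from PPE 1, the lowest, to PPE 2. The change was -0.08 (SE 0.17, 95% interval -0.46 to 0.29; adjusted p = 0.751 in limma), and this probe was above background on 4 of 5 arrays in each group. Whether Igf2 RNA that this probe does not read changed was not tested. The difference of H19 over Igf2 on the same array rose by 3.41, larger than the spread between arrays (exact permutation p = 0.00794, adjusted p = 0.00952 over 6 such pairs, which were picked after the values were seen).

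Igf2r, the receptor that takes IGF2 into the cell for breakdown, rose less. Its probe, A_51_P125467, is printed in 10 spots near chr17:12875253-12875263, where the design gives a position of only 11 bases. Sham arrays 1 to 5 read 0.50, 0.40, 0.16, 0.51 and 0.11, and PPE arrays 1 to 5 read 1.18, 1.31, 1.0, 0.89 and 0.79. All PPE arrays lay above all sham arrays. The rise was 0.70 (SE 0.13, 95% interval 0.41 to 0.99), or 1.62-fold, with an adjusted p of 0.00175 in limma, and it was 0.75 within slide 1 and 0.66 within slide 2. The difference of Igf2r over Igf2 rose by 0.78 (exact permutation p = 0.00794, adjusted p = 0.00952 over the 6 pairs). This pair too was picked after its values were seen, so the p describes the difference and does not test it. With the authors' processed ratios the rise of 0.74 did not pass (exact permutation p = 0.143), nor did that of 1.30 under median centring (exact permutation p = 0.0794).

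Mest, an imprinted gene for a hydrolase-like protein of mesodermal tissue, rose on all 3 of its probes. The brightest, A_51_P124535 at chr6:30698279-30698338, read 1.11, 0.32, 1.08, 0.59 and 0.16 on sham arrays 1 to 5 and 3.92, 3.94, 3.56, 3.35 and 3.25 on PPE arrays 1 to 5. The highest sham array was thus more than 2 log2 units below the lowest PPE array. The rise was 2.95 (SE 0.22, 95% interval 2.47 to 3.42), or 7.72-fold, and its adjusted p of 2.52e-06 in limma was the smallest of the member probes. The difference was 2.82 within slide 1 and 2.75 within slide 2.

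The Mest probe at chr6:30697385-30697444 rose by 1.97 (SE 0.37, adjusted p = 0.0015 in limma). The probe farthest upstream, at chr6:30692160-30692219, rose by 0.95 (SE 0.23, adjusted p = 0.00725 in limma) and was above background on 3 of 5 sham arrays. The rise of the last probe exceeded that of the first by 2.0 (exact permutation p = 0.00794, adjusted p = 0.00952 over the 6 pairs). This pair was picked after its values were seen, so the p describes the gap and does not test it. This gap depended on the processing, and which step lies behind that was not tested. With offset 16 in the background correction the gap was 1.70 (exact permutation p = 0.00794). With the authors' processed ratios the first probe changed by 2.20 (adjusted p = 0.013 in limma, not called), the gap was 0.73 (exact permutation p = 0.238) and the middle probe had the smallest rise, 1.70. The call of this first probe was kept in only 2 of the 10 fits that left out 1 array. H19 and Mest differed in their rise by 0.38, which is within the spread between arrays (exact permutation p = 0.452).

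Plagl1, a zinc finger transcription factor that is known to bind at other imprinted genes, H19 and Igf2 among them, split by probe. The brightest probe, A_55_P1961968 at chr10:12850832-12850891, read 0.99, 0.65, 0.66, 0.48 and 0.64 on sham arrays 1 to 5 and 2.30, 3.05, 2.08, 1.62 and 1.68 on PPE arrays 1 to 5. The groups did not overlap, and PPE 2 was the highest array. This probe rose by 1.46 (SE 0.24, 95% interval 0.93 to 1.99), or 2.75-fold, with an adjusted p of 0.000689 in limma, and the difference was 1.68 within slide 1 and 1.20 within slide 2.

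The neighbouring Plagl1 probe at chr10:12851280-12851339 rose by 1.47 (SE 0.20, adjusted p = 0.000175 in limma). The 2 probes farther upstream, at chr10:12848421-12848480 and chr10:12848851-12848910, changed by -0.20 (95% interval -0.58 to 0.17) and 0.11 (-0.16 to 0.38) and were not called. The mean of the downstream pair over that of the upstream pair rose by 1.52 (exact permutation p = 0.00794, adjusted p = 0.00952 over the 6 pairs). The probes were put in these pairs after their values were seen, so this p describes the split and does not test it. The 4 probes of Plagl1 thus report unequal changes within 1 gene name.

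**Figure D3:**
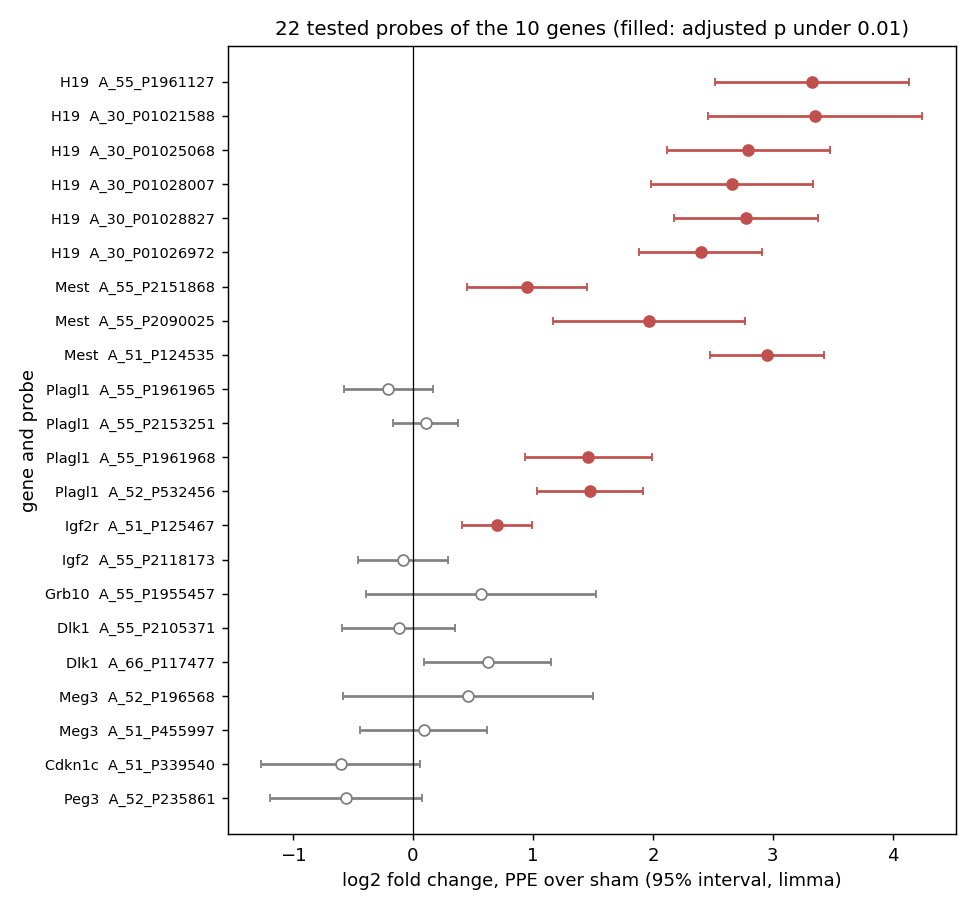
Change of 22 tested member probes (PPE minus sham, log2) with its 95% interval, grouped by gene; filled points were called. The probes of H19 and Mest were all called, the Plagl1 probes split into 2 called and 2 not called, and the Meg3 and Dlk1 probes were not called.

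Cdkn1c, which encodes the cell cycle inhibitor p57, was not called. Sham arrays 1 to 5 read 3.76, 2.92, 2.78, 3.66 and 2.84, and PPE arrays 1 to 5 read 2.67, 3.59, 2.52, 2.04 and 2.14. The groups overlapped through PPE 2, which read above 3 of the 5 sham arrays. The change was -0.60 (SE 0.30, 95% interval -1.27 to 0.06; adjusted p = 0.155 in limma) on the probe at chr7:150644753-150644812.

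Grb10, an adaptor protein that dampens insulin and IGF receptor signalling, changed by 0.57 (SE 0.44, 95% interval -0.39 to 1.53; adjusted p = 0.367 in limma) on the probe at chr11:11833165-11833224. Sham arrays 1 to 5 read -0.86, -0.24, -1.0, -0.78 and 0.11, and PPE arrays 1 to 5 read -0.84, -0.11, -0.12, -0.66 and 1.79. PPE 5 stood above all others, and without it the change was 0.12. Sham 5 was the highest sham array. Those 2 arrays had the lowest shares of spots above background in their groups, 45.8% and 37.6%, and the part of that in the value was not tested.

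Peg3, an imprinted zinc finger gene, was read by 1 tested probe at chr7:6658774-6658833. Sham arrays 1 to 5 read 1.77, 0.54, 0.59, 1.19 and 0.25, and PPE arrays 1 to 5 read 0.21, 0.99, 0.40, -0.09 and 0.03. The groups overlapped, and 4 of the 5 arrays in each were above background. The change was -0.56 (SE 0.29, 95% interval -1.19 to 0.08; adjusted p = 0.17 in limma). A second Peg3 probe was above background on 2 sham arrays and 1 PPE array and was not tested.

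None of the Dlk1 and Meg3 probes was called. Dlk1, a membrane protein that holds back adipocyte differentiation, was far below the reference on every array. On its probe at chr12:110698721-110698781 sham arrays 1 to 5 read -4.71, -4.85, -4.25, -5.06 and -4.42, and PPE arrays 1 to 5 read -4.05, -3.34, -3.81, -4.72 and -4.25. PPE arrays 4 and 5 fell inside the sham range. The change was 0.62 (SE 0.24, 95% interval 0.10 to 1.15; adjusted p = 0.0684 in limma), and the second Dlk1 probe, at chr12:110698502-110698561, changed by -0.12 (SE 0.21, adjusted p = 0.719).

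On its brightest probe Meg3 was above the reference on every array. On this probe, at chr12:110809678-110809737, sham arrays 1 to 5 read 3.19, 3.17, 2.51, 3.42 and 3.22, and PPE arrays 1 to 5 read 3.44, 3.80, 2.80, 2.55 and 3.34. The groups covered nearly the same range, with a change of 0.09 (SE 0.24, 95% interval -0.44 to 0.62; adjusted p = 0.82 in limma). On this probe the normalized red signal differed by 0.97 and the normalized green reference signal by 0.88, both higher on the PPE arrays. This reference difference was the largest of the member probes. Both signals were rebuilt from the normalized ratio and mean brightness, so neither is a raw dye signal. The Meg3 probe at chr12:110799558-110799617 changed by 0.46 (SE 0.48, adjusted p = 0.511 in limma). It read 0.27 on sham 5, where it was not above background, and without that array the change was 0.03.

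Which genes had a pattern most like that of H19 was asked by the root mean square difference in centred log2 ratio over the 10 arrays, among 14257 genes named in RefSeq. The 3 nearest were Dhx58 (0.57), Oasl2 (0.58) and Cxcl12 (0.60), which changed by 3.02, 3.29 and 3.35. Dhx58 and Oasl2 are antiviral genes induced by interferon, and Cxcl12 encodes a chemokine. Of the members, Mest came 36th with 0.68, Plagl1 was number 842 and Igf2r number 1903. Igf2 came only at number 7428, and Peg3 and Cdkn1c at 12035 and 12162. This is a description of likeness over 10 arrays that fall into 2 groups, and it mostly ranks the size of the difference between them.

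Other imprinted genes moved in both directions. Of a list of 48 further imprinted genes, 47 were on the array and 39 were tested, with 5 higher, 5 lower and 29 not called, and a median change of -0.19. Over all gene names 13.7% were called higher and 9.86% lower, shares close to those of this list. The largest rises were Slc38a4, an amino acid transporter, by 1.13, Dio3, which inactivates thyroid hormone, by 1.09, and the non-coding RNA Mirg by 0.86. The largest falls were Slc22a2, an organic cation transporter, by a change of -2.15, Osbpl5, an oxysterol-binding protein, by -1.16, and Zrsr1, a splicing factor gene, by -1.02. Mirg and Dio3 come from the cluster of Dlk1 and Meg3, which were not called, Slc22a2 from that of Igf2r, and Osbpl5 from that of Cdkn1c.

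The following neighbours of the members were tested and not called. Airn, the antisense RNA across Igf2r, changed by 0.15 and Slc22a3 by -0.30. Copg2, beside Mest, changed by -0.03. In the cluster that holds Cdkn1c, Kcnq1ot1 changed by -0.29, Kcnq1 by 0.30 and Tssc4 by 0.21, and Ins2 and Ascl2, between Igf2 and Kcnq1, by -0.09 and 0.50. Zim1 and Usp29, beside Peg3, and Phlda2, beside Cdkn1c, were too dim to be tested.

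The IGF pathway, in which Igf2, Igf2r and Grb10 act, also split. Of 15 listed ligands, receptors, substrates and binding proteins outside the 10 members, 13 were tested, with 3 higher, 5 lower and 5 not called and a median change of -0.46. The share of all gene names called was 13.7% higher and 9.86% lower. Igf1, the other IGF ligand, rose by 1.50, the binding protein Igfbp3 by 1.24 and the RNA-binding protein Igf2bp2 by 0.81. The adaptor Irs2 had a change of -1.69, the binding protein Igfbp5 of -1.36 and the signalling receptor Igf1r of -1.09. The RNA of Igf1 and that of its receptor thus moved in opposite directions, while that of Igf2 was not called.

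**Figure D4:**
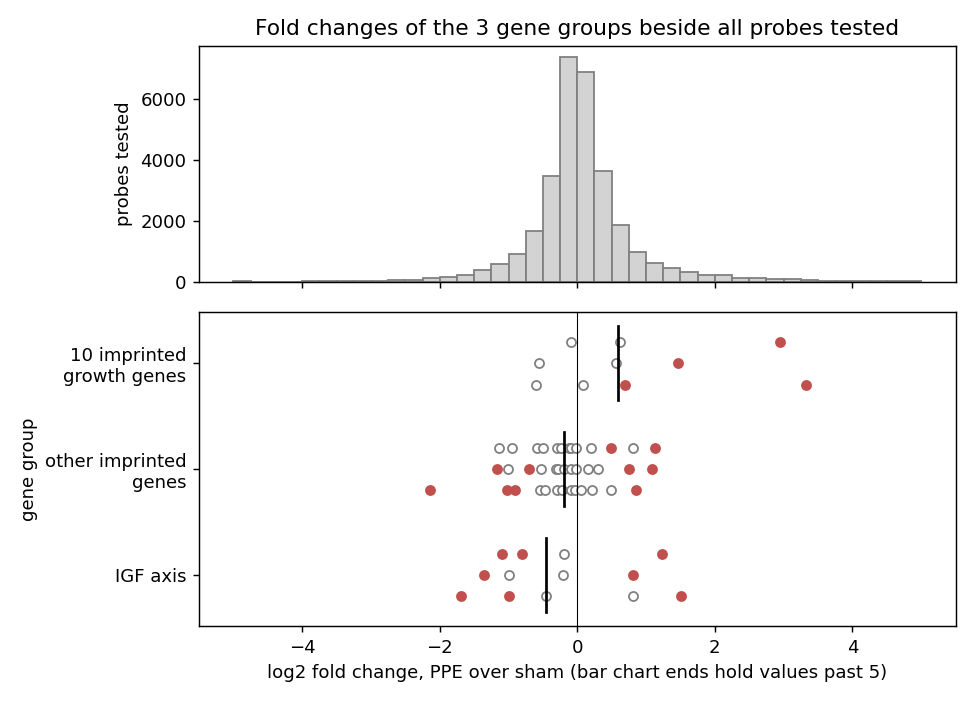
Change (PPE minus sham, log2) of each tested gene among the 10 imprinted growth genes, the other imprinted genes and the IGF pathway genes (filled points were called, black bars are medians), under a histogram of the change over all 30836 tested probes. The members hold 4 called rises and no called fall, and the other 2 lists hold called genes on both sides of 0.

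The tissue was a whole vessel segment, and markers of its cell types moved with the groups. Of 6 smooth muscle markers 5 fell, and their mean log2 ratio ranged from 3.77 to 4.66 in sham and from 1.98 to 3.22 in PPE. Of 6 macrophage markers 5 rose (0.03 to 0.60 in sham, 2.02 to 2.93 in PPE), as did 4 of 6 fibroblast markers (2.69 to 3.14, against 3.62 to 4.62) and 4 of 5 tested markers of dividing cells (-4.94 to -3.32, against -2.60 to -1.80). In such bulk RNA, fewer cells of a type cannot be told apart from less RNA in each cell. The part of these cell types in the rises of H19, Mest, Plagl1 and Igf2r was not tested.

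Markers of other cell types had fewer calls. Skeletal muscle markers had 0 of 5 tested genes called and ranged from 1.43 to 3.78 in sham and from 1.08 to 3.73 in PPE. Their highest sham value was on sham 4, the sham array on which H19 was highest, and so was that of the nerve sheath markers. In PPE the skeletal muscle markers were highest on PPE 2. They were lowest on PPE 3 (1.08), where the brightest H19 probe read 2.25, its highest value, against 2.22 on PPE 2. On the H19 probes 321, 522, 678 and 738 bases from the 3′ end PPE 2 was the highest array. On the probe 258 bases from it PPE 5 was the highest. The part of muscle in the H19 values was not tested. Endothelial markers (0 of 6) and B cell markers (0 of 4) had no call, adipocyte markers had 1 fall among 6 (Ucp1, -2.94) and a median change of -0.74, nerve sheath markers had 1 rise and 1 fall among 6, and adrenal and ganglion markers had 1 rise among 4. The mean of the adipocyte markers ranged from 4.90 to 6.02 in sham and from 3.83 to 5.32 in PPE, where PPE 2 was the only array inside the sham range. PPE 2 was the highest PPE array for smooth muscle, fibroblast, endothelial, adipocyte, skeletal muscle, B cell, ganglion and nerve sheath markers, and also for Cdkn1c, Peg3, Meg3, Dlk1, Mest, Igf2, Igf2r and Plagl1 on their brightest probes. No member besides Grb10 and H19 was highest on another PPE array. Within slides 1 and 2, the genes that were not called differed by -0.15 and 0.18 (Igf2), 0.43 and -0.16 (Meg3), 1.02 and 0.29 (Dlk1), -1.17 and -0.41 (Peg3), -0.63 and -0.58 (Cdkn1c), and 0.39 and 0.23 (Grb10), so that Igf2 and Meg3 changed sign between the slides.

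**Figure D5:**
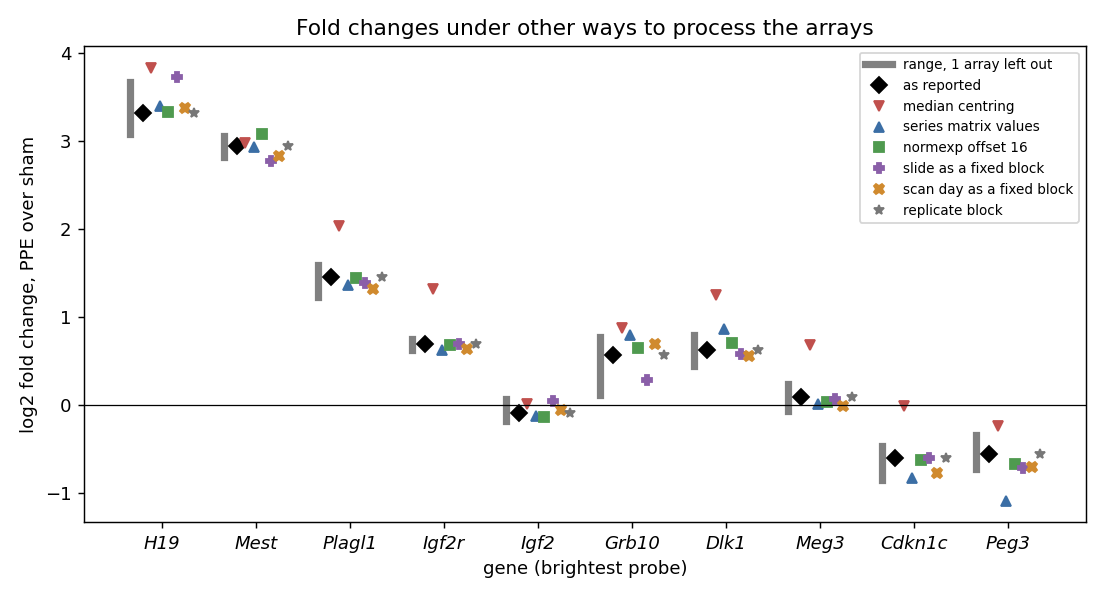
Change (PPE minus sham, log2) of the brightest probe of each member as reported (diamond), under 6 processing alternatives, and as the range of the fits that leave out 1 array (grey bar). H19 and Mest stay well above 0 throughout, and Igf2 and Meg3 lie on both sides of 0.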

How the data were processed

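Gene expression was measured on 2-colour Agilent arrays, 5 sham and 5 PPE, grouped by the sample labels. The authors labelled aortic RNA with Cy5 and the reference with Cy3, hybridized all arrays on the same day, extracted features (Feature Extraction 10.7.3.1) and left out arrays of poor hybridization and outliers; which arrays is not stated. The deposited scanner files hold red and green signal as linear intensity for 62976 spots each, and the series matrix holds the authors' processed log2 ratio, equal to log2 of red over green processed signal on 100% of spots within rounding (column medians -0.16 to 0.12), neither centred by gene nor turned. Dyes were not swapped, and the effect of the dyes was not tested.

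Mean signals were corrected against median background by normexp (offset 50), outlier spots were left out, and ratios were loess-normalized within arrays (limma 3.58.1, R 4.3.3). Spots of a probe were averaged. Probes well above background in red on at least 5 arrays were fitted with lmFit and eBayes (two-sided), with Benjamini-Hochberg adjustment over all 30836 tested probes and calls at 0.01. The methods' test was SAM, run here with 100 relabellings as an alternative. A gene was represented by its brightest tested probe. RefSeq (GRCm38.p6) was used for names only; 14277 of 22520 tested gene names and 10 of 10 members matched. Probe positions are on mm9, and exon or UTR annotation of that build was not used here.

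The members and lists were chosen with earlier results of these data known. All 10 members were named, with the 3 largest called rises and falls of the imprinted and IGF lists, and the 3 genes nearest H19; the neighbours of the members on the imprinted list, the remaining markers and the 6 pairs were named after their values were seen. Of the tested member probes, 1 enters the counts but is not reported singly here. The fit was checked on simulated data. The number of arrays, 5 in each group, limits the precision. The alternatives were median centring, Aquantile, offset 16, the series matrix, filters, 1 probe per gene, slide, scan day and replicate blocks, SAM, and leaving out each array. Of these, Aquantile leaves the ratios as they are and so repeats the main fit.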

Additional observations from a re-analysis of the deposited data

Results flagged for a closer look

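On the brightest Meg3 probe, sham 3 read 2.509, with the nearest sham array at 3.167. Its gap was 0.7255 of the range of the group, against a critical value of 0.71 for 5 arrays. On the Grb10 probe, PPE 5 read 1.795, with the nearest PPE array at -0.1107 and a gap of 0.7228 of the range. Over the 10 genes and both groups, 2 of 20 groups were past that value, where chance gives about 5%.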

How the results depend on the processing

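H19, Mest, Plagl1 and Igf2r were the 4 members called higher, with 0 called lower, under all alternatives tried except median centring of each array, which called 0 of the 10 members. Under median centring 409 probes were called higher and 8 lower, 0 other imprinted genes and 0 IGF pathway genes in either direction, and H19 changed by 3.84 (adjusted p = 0.0112 in limma), Mest by 2.98 (0.0122), Plagl1 by 2.04 (0.132) and Igf2r by 1.32 (0.268); 3 of the 6 tested H19 probes stayed past the threshold. SAM called 6262 probes higher and 4384 lower. Aquantile left every ratio as it was, so its fit equals the main fit and it could not move a call. It is still among the alternatives counted here. Other imprinted genes called lower came to 9 with the series matrix values, and those called higher came to 2 with the filter on all 10 arrays and to 3 to 5 without single arrays (3 without sham 1, PPE 3 or PPE 4). The direction of values that were not called turned for Igf2 under median centring (0.0154), with slide as a block (0.0446) and without PPE 1 (range without single arrays -0.178 to 0.0702), for the second Dlk1 probe under median centring (0.44), with slide (0.0476) or scan day (0.0143) as a block and without sham 5 or PPE 1 (-0.256 to 0.0107), for a Plagl1 probe under median centring (0.10), and for the brightest Meg3 probe with scan day as a block (-0.0075) and without sham 3 or PPE 2 (-0.0642 to 0.247). The cause of these was not tested. The first Mest probe lost its call with the series matrix values, where its rise was larger (2.20, adjusted p = 0.013 in limma), and with no filter (0.95, adjusted p = 0.0138); of the 6 pair differences, the scalings, added after seeing the data, lost that of the last over the first Mest probe (series matrix, 0.73) and that of Igf2r over Igf2 (series matrix, 0.74; median centring, 1.30); the other 11 called member probes stayed called in 198 of 198 alternatives besides median centring, and the 11 not called were called in 0 of 211. The replicate numbers did not pair the arrays (same-number correlations 0.29, -0.29, 0.17, -0.14 and 0.52; only sham 5 was best matched by its own number), and the replicate block gave 3851 probes higher and 2878 lower and the same count of members, 4 higher and 0 lower.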
